A study of Mus musculus with 12 samples.

Results

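Ribosome footprints were compared with messenger RNA in the left ventricle of adult mouse hearts that lack *Rpl3l* (genotype Rpl3l-/-, KO). The libraries concerned are 3 of ribosome-protected fragments (RPF) and 3 of RNA, 6 of the 12 in the series. They were picked by their labels, and the RPF and RNA libraries that bear the same number were set against each other. The other 6 libraries come from wild-type (WT) ventricle, 3 of each kind, and serve here for comparison. All tissue was homogenised in a polysome buffer with cycloheximide at 100 µg/ml, an inhibitor that holds ribosomes on the mRNA. For the footprints, lysate was digested with RNase I for 45 minutes and the fragments went into a small-RNA library kit. Undigested lysate gave the RNA libraries, which were selected for poly(A) and made with a strand-specific kit. The labels give no strain, sex or exact age, no design of the deleted allele, and no word on whether same-numbered libraries come from the same heart, so p-values measure the spread between these libraries.

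A translating ribosome shields a short stretch of mRNA from nuclease, and the count of such footprints on a gene follows both how much mRNA there is and how many ribosomes sit on it. Dividing footprints by RNA is therefore often used to rank mRNAs by ribosomes per message, a quantity called translation efficiency. The ratio also depends on the region of each transcript that was counted and on how multi-mapping reads were treated. Neither is given in the sources used here, so the ranking is one of footprints per RNA. Rpl3l is a paralog of the large-subunit protein Rpl3, found in the ribosomes of heart and skeletal muscle. Known layers of control on footprints per RNA include the pyrimidine-rich start (5′ TOP) of mRNAs for the translation machinery, upstream reading frames, and hairpins in the 5′ UTR bound by iron regulatory proteins.

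The labels were first checked on the targeted gene. In depth-scaled counts of nuclear genes (CPM), *Rpl3l* footprints were 196, 263 and 248 in WT 1 to 3 and 9.18, 4.48 and 13.3 in KO 1 to 3. *Rpl3l* RNA was 826, 772 and 852 CPM in WT and 98.1, 98.3 and 110 CPM in KO. Every KO library lay below every WT library in both assays. Nuclear counts, those left after names starting with mt- were set aside, numbered 4584962 to 7084280 in the RPF KO libraries and 2814810 to 4023519 in the RNA KO libraries. Names starting with mt- took 2.54% to 5.22% of RPF KO counts and 49.84% to 57.58% of RNA KO counts. A gene with 3 counts, the detection floor used here, stood at 0.423 to 0.654 CPM in RPF KO and 0.746 to 1.07 CPM in RNA KO. Library RNA KO 2 stood apart from RNA KO 1 and RNA KO 3, and values that turn on it are given by pair below. Summed markers of cardiomyocytes were 95608 to 97549 CPM in RNA KO and 106130 to 114990 CPM in RPF KO, the highest of the marker sums in both assays.

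Of 21659 nuclear names, 6931 passed the filter on low counts in both assays and were ranked. These held 91.8% to 92% of nuclear footprints and 98.5% to 98.7% of nuclear RNA counts. Another 3811 names passed in footprints only and held 7.68% to 7.85% of footprints against 0.577% to 0.798% of RNA. They could not be ranked, and they include members of the lists below such as vinculin (*Vcl*), at 306, 320 and 365 CPM in footprints and 2.49, 4.76 and 6.21 CPM in RNA. Only 290 names passed in RNA alone. A gene had to be well counted in both assays to enter, so more genes with many footprints and little RNA are missing from the ranking than the reverse.

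Footprints per RNA varied far more between genes than between pairs of libraries. For each gene the log2 ratio of RPF to RNA CPM (0.5 CPM added to each) was taken in the 3 same-numbered pairs and expressed relative to the median gene of its pair. The middle 90% of genes ran from -2.93 to 3.01 on this scale, a 61.2-fold range, while the median SD of a gene between pairs was 0.32. Of the 6931 genes, 5892 (85%) lay on the same side of the median gene in all 3 pairs. Across genes, the ranks of any 2 pairs correlated at a Spearman rho of 0.937 to 0.947; genes are not independent replicates, so no p is given. Pair 2 was the widest, with an SD across genes of 1.96 against 1.78 and 1.77 in pairs 1 and 3.

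In edgeR's quasi-likelihood test of RPF KO against RNA KO, 5238 of 6931 genes (75.6%) differed at an adjusted p below 0.05. Of all genes tested, 45.8% (3176) were higher in footprints and 29.8% (2062) lower. Tested against a 2-fold difference, 44.7% of genes (3095) still passed, 28.4% higher (1971) and 16.2% lower (1124). The split between higher and lower is set by the scale: median-of-ratios scaling, which puts the typical gene at no difference, gave 2613 higher and 2613 lower. With mitochondrial names kept in the library sizes it became 4767 higher and 870 lower. Positions are therefore stated relative to the median gene, and "higher" or "lower" with a p refers to the test on nuclear counts, in which the median gene had a log2 fold change of 0.35.

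**Figure D1:**
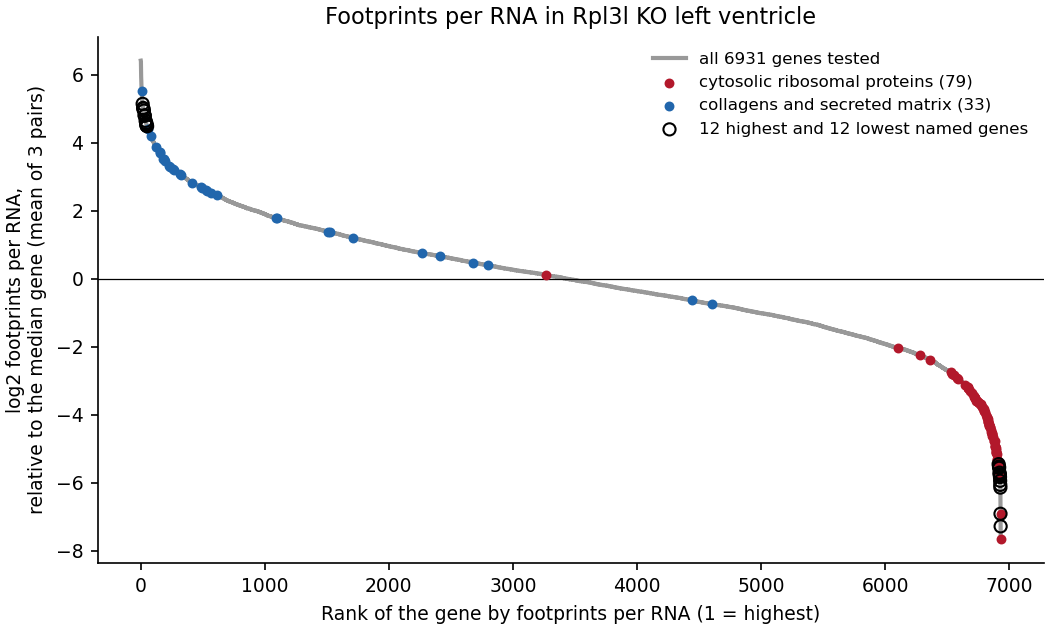
All 6931 tested genes in order of footprints per RNA in KO ventricle; the y axis is the log2 ratio relative to the median gene, averaged over 3 pairs. Cytosolic ribosomal protein genes (red) gather at the low end, with 77 of 79 in the lowest decile, and collagen and matrix genes (blue) lie mostly in the upper part; circles mark the 12 highest and 12 lowest named genes.

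The mRNAs of the ribosome itself formed the low end of the ranking. Of 84 cytosolic ribosomal protein genes, 79 were tested and 78 of them were lower in footprints, all past 2-fold, against a background of 16.2%. Their median was -4.18 relative to the median gene (-4.07, -4.40 and -4.06 in pairs 1 to 3), and 77 of the 79 lay in the lowest decile of the ranking. As a class they took 12.3%, 13.8% and 12.7% of nuclear RNA counts in KO 1 to 3 but 0.843%, 0.953% and 0.879% of footprints. The groups did not overlap (exact two-sided permutation p = 0.1, the smallest that 3 against 3 libraries allow). Most lists reached this p, so it does not set this class apart. Replacement histones did so at means of 0.058% of footprints and 0.0528% of RNA.

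Large- and small-subunit genes had medians of -3.96 (46 genes) and -4.29 (33 genes). *Rps23* had the lowest ratio of all tested genes (-7.65), at 2.68, 3.73 and 2.62 CPM of footprints against 527, 684 and 432 CPM of RNA; it is named here after its value was seen. Of the better-counted members, *Rps12* had 28.9, 43.3 and 21.4 CPM of footprints against 2470, 3410 and 2730 CPM of RNA, which put it at -6.91 ± 0.29 (SD, n = 3 pairs). For *Rplp1*, a protein of the stalk that recruits elongation factors, the footprints were 67.6, 78.3 and 96.6 CPM and the RNA 3280, 4220 and 3240 CPM. *Rplp1* stood at -5.83 ± 0.45. Among the better-counted members the ratio nearest the median gene belonged to *Rpl15* (-2.24 ± 0.03), *Rps27l* (-2.03 ± 0.20) and *Rpl41*. *Rpl41*, which encodes the shortest ribosomal protein, was the only tested member not called lower. It had 41.6, 62.4 and 44.7 CPM of footprints and 25.6, 45.7 and 35.5 CPM of RNA. Its ratio was 0.12 ± 0.21 (edgeR adjusted p = 0.077). Its coding sequence has only 78 bases and is wholly shared with transcripts of other genes (100%). Whether *Rpl41* is a true exception therefore cannot be told from these counts. The members not tested include *Rpl10*, *Rpl13a*, *Rpl36al* and *Rps27*.

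The paralog pair lay inside this group. *Rpl3* had 126, 200 and 129 CPM of footprints and 1520, 1620 and 1550 CPM of RNA in KO, a ratio of -3.76 ± 0.23 (SD, n = 3 pairs) and rank 6782 of 6931. In GENCODE M21 (GRCm38) *Rpl3* occupies chr15:80077791-80083406 (-) with 10 exons, and *Rpl3l* chr17:24727820-24736143 (+). The residual *Rpl3l* RNA had a ratio of -3.92 ± 0.78 and rank 6802. The RNA that remained from the deleted gene thus ranked among the other ribosomal protein mRNAs.

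Many ribosomal protein counts are uncertain, since processed pseudogenes can repeat their sequence. The median ribosomal protein gene shared 97% of its 28-base coding windows with transcripts of other genes. Of the members nearest the median gene, *Rpl41* and *Rpl15* shared 100% and *Rps27l* 63.6%. The 6 tested members that shared under 50% show the level with less of that overlap, and were chosen for it after the values were seen. They include *Rack1*, *Rpl8*, *Rps3*, *Rpl4* and *Rpl3l*, and their median was -3.86 in KO and -3.46 in WT. *Rpl3l* is the deleted gene, so its KO ratio (-3.92, against -2.28 in WT) rests on residual RNA. It does not stand for an intact ribosomal protein mRNA. *Rpl8* shared 11.4% of its windows and had 158, 157 and 178 CPM of footprints against 2180, 2480 and 2440 CPM of RNA (-4.22 ± 0.21). All 6 lay in the lowest decile.

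The 5′ ends of some of these mRNAs are shown because the pyrimidine tract next to the cap is the best-known mark of this class; capitals mark the first run of C followed by 6 or more C or T within 50 bases of the annotated start (GENCODE M21, GRCm38, read 5′ to 3′ on the transcript).
*Rps24*, chr14:24490718-24490742 (+): CTCTTTTCCTCCTCTCCagctccgg
*Rps2*, chr17:24720110-24720130 (+): CTTCTTCTTCTTCgggagaac
*Rack1*, chr11:48800360-48800377 (+): CTTTTTCTCCacagggtc
*Rpl4*, chr9:64173375-64173390 (+): CTTTTCCTgtgggagc
*Rplp1*, chr9:61914523-61914542 (-): gatCTTTTCCTCagctgccg
Such a run was found in 30 of the 79 tested ribosomal protein genes (38.0%) and in 19.3% of all tested genes. The 30 with a run had a median of -4.15 (-3.96, -4.49 and -4.15 in pairs 1 to 3) and the 49 without had -4.18 (-4.12, -4.31 and -4.06). The difference was not tested. Annotated starts can lie away from the true cap site, and no match says only that these letters are not in that window.

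Factors of translation were spread over the whole ranking. Of 19 other 5′ TOP mRNAs tested, 15 were lower and 0 higher, against 29.8% and 45.8% of all genes. Their median was -1.80. *Tpt1*, an abundant TOP mRNA, had 237, 273 and 235 CPM of footprints and 8110, 7880 and 6950 CPM of RNA (-5.31 ± 0.13), next to ribosomal proteins. At the other end of that list, *Vim* (-0.09 ± 0.36) and *Eif3l* (-0.34 ± 0.11) were near the median gene and not called. All windows of *Tpt1* are shared with other genes (100%), and the 5 members with under 20% shared windows had a median of -0.36.

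Initiation factors had 13 of 32 higher and 12 lower (40.6% and 37.5%, near the 45.8% and 29.8% of all genes), with a median of -0.36. *Eif5b*, which joins the subunits at the start codon, had 115, 130 and 117 CPM of footprints on 2050, 3620 and 1810 CPM of RNA (-4.67 ± 0.54), while the cap-binding factor *Eif4e* had 103, 94.3 and 97.1 CPM on 20.6, 11.1 and 19.9 CPM (2.16 ± 0.34), although 80.5% of its windows are shared. Elongation, release and recycling factors had 7 of 9 higher and 0 lower (median 0.78). The release factors *Etf1* (1.99 ± 0.47) and *Gspt1* (1.64 ± 0.36) were the highest of its members with at least 50 counts in both assays; the recycling factor *Abce1*, with fewer RNA counts, stood at 3.87 ± 0.27. Heart elongation factor *Eef1a2* was at -0.68 ± 0.16 and was not called (edgeR adjusted p = 0.073).

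The 12 highest genes among those with a mean of at least 50 counts in both assays were *Nedd4*, *Got2*, *Smyd1*, *Hspb6*, *Pdlim5*, *Jup*, *Hspb7*, *Fasn*, *Txnip*, *Ctnnb1*, *Acsl1* and *Cltc*, from 5.15 down to 4.49. Several belong to the contractile cell's structure: Smyd1 is a muscle chaperone and methyltransferase for myosin assembly, Pdlim5 sits at the Z-disc, and Jup and Ctnnb1 join the cells at the intercalated disc. Others are enzymes of metabolism: Got2 carries aspartate amino transfer in mitochondria, Fasn makes fatty acids and Acsl1 activates them. *Nedd4*, a ubiquitin ligase, had 882, 1030 and 924 CPM of footprints on 16.7, 19 and 25.6 CPM of RNA, 35.4-fold above the median gene. For *Got2* the footprints were 1990, 1970 and 2130 CPM and the RNA 62.5, 25.7 and 67.4 CPM, with 78.9% of its windows shared. Footprints exceeded RNA in every library of the 12, which follows from how they were chosen.

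Pair 2 gave the highest ratio in 8 of these 12 genes, near its share among all genes higher past 2-fold (54.1% of 1971). *Hspb6*, a small heat shock protein, was one of them: RNA was 53.3, 11.7 and 41.5 CPM in KO 1 to 3, lowest in KO 2, and footprints were 1760, 896 and 1110 CPM. Its ratios were 4.69, 5.71 and 4.44. *Fasn* differed from the rest, with footprints (539, 1990 and 955 CPM) and RNA (14.6, 65 and 33.8 CPM) that were both highest in KO 2 and lowest in KO 1, so its ratio varied by an SD of only 0.21. Beside it, summed adipocyte markers were 111.6, 319.9 and 171.4 CPM in RNA KO 1 to 3 and 140.4, 284.9 and 190.6 CPM in RPF KO, and their part in the *Fasn* level was not tested.

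**Figure D2:**
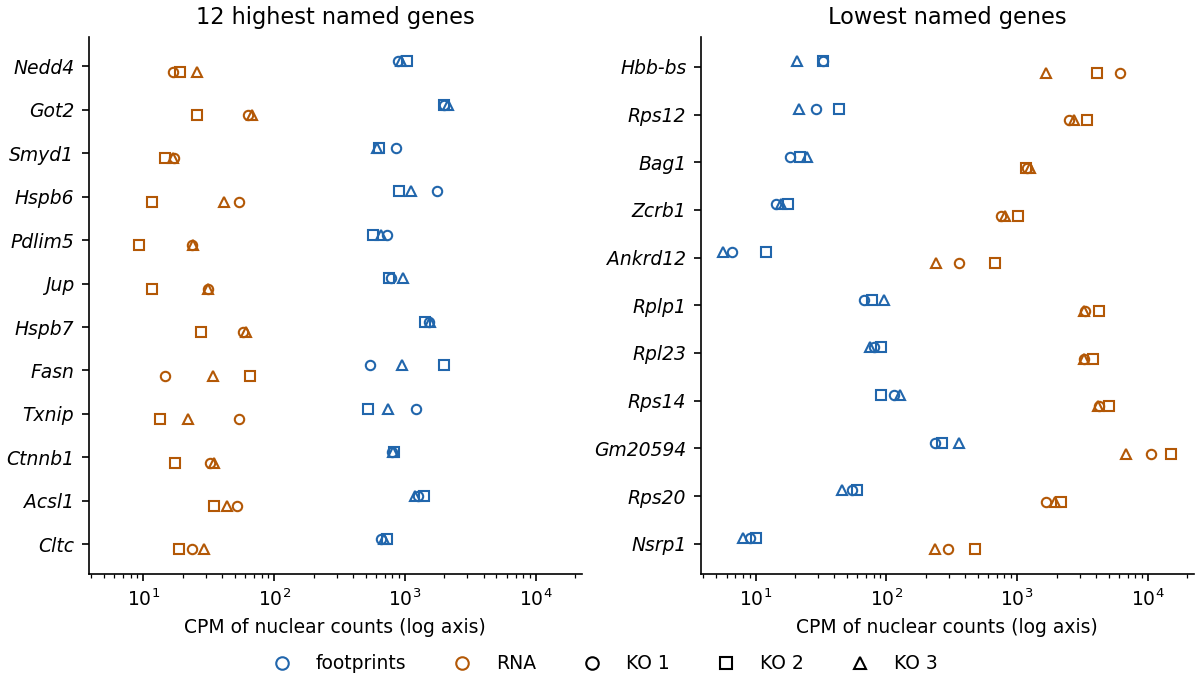
Footprint (blue) and RNA (orange) levels of the 12 highest and of the lowest named genes in each KO library, on a log axis of CPM of nuclear counts. Footprints exceed RNA in every library for the 12 highest (517 to 2130 against 9.2 to 67.4 CPM), and RNA exceeds footprints in every library for the lowest.

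The 10 genes with the most footprints took 16.9% to 17.9% of nuclear footprints and 9.7% to 11.7% of nuclear RNA counts. *Myh6*, the main adult cardiac myosin, led with 33800, 39000 and 37600 CPM of footprints on 10300, 10600 and 12600 CPM of RNA (1.35 ± 0.06). *Atp2a2*, the calcium pump of the sarcoplasmic reticulum, had nearly as many footprints (26300, 30700 and 27400 CPM) on 1450, 833 and 1720 CPM of RNA, which placed it at 4.09 ± 0.55. By contrast the ventricular light chain *Myl2* had 11300, 11500 and 11000 CPM of footprints on the highest RNA of the 10, 32700, 31700 and 34300 CPM (-1.92 ± 0.05). *Actc1*, *Ttn* and *Atp5a1* were also higher in footprints (1.70, 2.17 and 1.25). *Mb*, *Tpm1*, *Myl3* and *Atp5b* stood between -0.73 and 0.14 and did not pass 2-fold; *Tpm1* and *Myl3* were called lower on nuclear counts and higher with mitochondrial names kept.

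Sarcomere genes split by protein, while the class as a whole took like shares of both assays. The thick filament, thin filament and Z-disc lists together took 16.4%, 16.5% and 16.9% of footprints and 16.8%, 16.3% and 17.0% of RNA (exact permutation p = 0.9). Of the 11 thick filament genes tested, 6 were higher and 5 lower (45.8% and 29.8% of all genes). Among the better-counted members the giant protein *Ttn* (2.17 ± 0.51) and the M-band protein *Myom2* (1.99 ± 0.26) were the highest and *Myl2* the lowest. The lowest of all 11 stood at -5.42. Of 10 thin filament genes, 6 were lower and 3 higher: the troponin *Tnnt2* had 5980, 5880 and 6490 CPM of footprints on 19900, 19700 and 19000 CPM of RNA (-2.04 ± 0.20), and the pointed-end cap *Tmod1* had 450, 487 and 437 CPM on 16, 13.6 and 18.9 CPM (4.42 ± 0.21). Among 19 Z-disc and costamere genes 13 were higher and 5 lower. The better-counted members of this list ran from *Pdlim5* (4.81 ± 0.50) and *Ldb3* (4.10 ± 0.06) to *Myoz2* (-3.18 ± 0.17) and *Nexn* (-4.72 ± 0.43). The highest of all 19 stood at 5.44.

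Most calcium handling genes were higher in footprints. Of 19 tested, 15 were higher and 3 lower, against 45.8% and 29.8% of all genes, and the list median was 1.75. The class took 3.85%, 4.46% and 3.96% of footprints and 1.06%, 1.42% and 1.01% of RNA (exact permutation p = 0.1). Most lists gave this p. *Atp2a2* alone took 2.63%, 3.07% and 2.74% of footprints and 0.145%, 0.0833% and 0.172% of RNA. Without it the class took 1.23%, 1.39% and 1.23% of footprints and 0.916%, 1.34% and 0.837% of RNA (exact permutation p = 0.3). Among the better-counted members the calcium store protein *Casq2* had 1260, 1320 and 1090 CPM of footprints on 79.2, 45.3 and 66.1 CPM of RNA (3.92 ± 0.39), next to *Atp2a2*. The sodium-calcium exchanger *Slc8a1*, with fewer RNA counts, was the highest of all members (5.07 ± 0.20). The *Casq2* partner at the release site, *Trdn*, was at the far end with 177, 254 and 182 CPM of footprints on 3680, 6160 and 3020 CPM of RNA (-4.71 ± 0.37). *S100a1* was also low (-1.49 ± 0.23).

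Fuel pathways lay above the median gene and the respiratory chain below it. In fatty acid uptake and oxidation 21 of 27 genes were higher and 3 lower (median 1.03), against 45.8% and 29.8% of all genes. *Lpl*, the lipase that frees fatty acids from lipoproteins, had 6680, 8110 and 7220 CPM of footprints on 313, 197 and 395 CPM of RNA (4.29 ± 0.52). In glycolysis, pyruvate entry and the TCA cycle 28 of 37 were higher (75.7%) and 3 lower (median 0.68), led by *Ogdh* at 4540, 4650 and 4540 CPM on 234, 111 and 229 CPM (4.29 ± 0.53). *Etfb* (-3.08 ± 0.41) and *Pgam2* (-2.16 ± 0.20) were the lowest members of the 2 lists. Both have short annotated 3′ UTRs, of 60 and 33 bases, and *Etfb* shares 76.9% of its windows.

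Of 36 nuclear-encoded complex I genes 27 were lower (75%, against 29.8% of all genes) and 2 higher, with a median of -1.75. *Ndufb9* had 282, 319 and 307 CPM of footprints on 3300, 4270 and 4020 CPM of RNA (-4.04 ± 0.18), and *Ndufs1*, the largest subunit, had 1140, 1460 and 1240 CPM on 436, 263 and 434 CPM (1.42 ± 0.49). In complexes II to V, 22 of 44 genes were lower (50%) and 8 higher (median -0.73). Here *Cox5b* (-3.57 ± 0.20, 76.9% shared windows) and *Cox8b* (-2.89 ± 0.35) stood opposite the membrane anchors of complex II, *Sdhd* (3.78 ± 0.40) and *Sdhc* (3.36 ± 0.39). Together the nuclear respiratory chain took 9.69%, 9.0% and 9.05% of footprints and 14.8%, 15.3% and 14.9% of RNA (exact permutation p = 0.1). Most lists gave this p. Mitochondrial ribosomal proteins followed, with 41 of 77 lower (53.2%) and 13 higher (median -0.83, against -4.18 for the cytosolic ones).

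**Figure D3:**
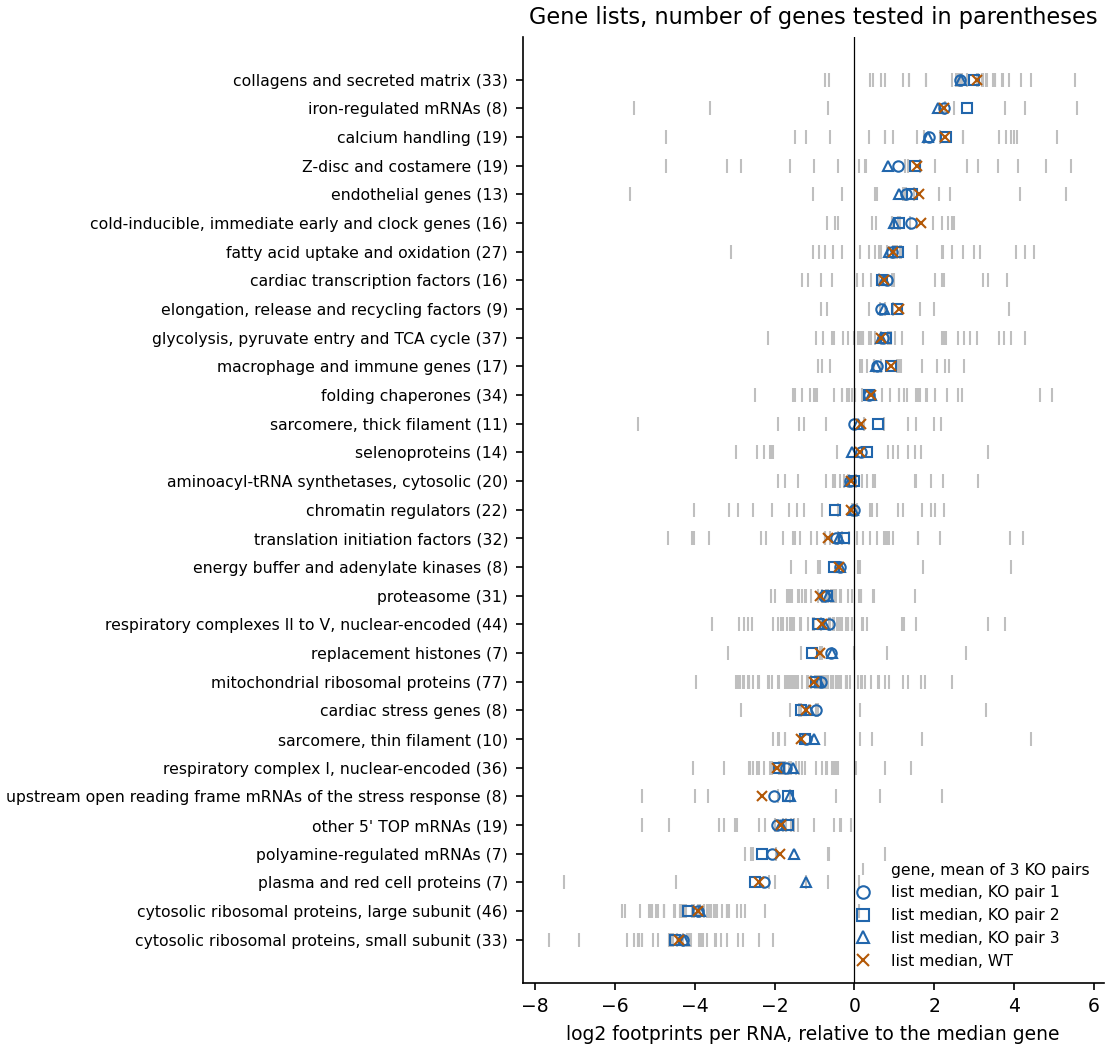
Footprints per RNA of each gene list in KO ventricle; grey ticks are genes (mean of 3 pairs), blue symbols the list median in each KO pair and orange crosses the WT median, all as log2 relative to the median gene. The order runs from collagens and secreted matrix (median 2.71) to the small-subunit ribosomal proteins (-4.29), and the 3 KO pairs differ most for plasma and red cell proteins (-2.48 to -1.22); replication-dependent histones, with 1 gene tested, are not drawn.

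In the list of iron-regulated mRNAs, the 2 ferritins had the lowest ratios of the 8 genes tested. Iron regulatory proteins bind a hairpin with a CAGTG loop in the 5′ UTR of ferritin mRNAs and hold back their translation when iron is scarce. *Fth1*, the heavy chain, had 551, 1260 and 603 CPM of footprints on 7540, 6680 and 7400 CPM of RNA (-3.63 ± 0.65). Of its coding windows 26.1% are shared with other genes. *Ftl1*, the light chain, had 6.49, 7.01 and 5.67 CPM on 245, 277 and 208 CPM, a ratio of -5.51. The part of the hairpin or of shared sequence in these ratios was not tested. *Fth1* footprints were highest in KO 2, and its ratio there was -2.89 against -4.11 and -3.90. *Ftl1*, *Epas1* and *Slc40a1* fell short of the count needed to be named by rule and are given because their sequences bear on the list.

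Of the other iron-regulated mRNAs that carry the same 5 letters in the 5′ UTR, *Epas1* stood at the opposite end. The windows around CAGTG (capitals) are shown for the ferritin pair and for 2 such mRNAs, from GENCODE M21 on GRCm38.
*Ftl1*, chr7:45459778-45459807 (-): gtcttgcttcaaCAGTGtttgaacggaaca
*Fth1*, chr19:9982732-9982761 (+): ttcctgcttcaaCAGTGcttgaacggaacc
*Slc40a1*, chr1:45925464-45925493 (-): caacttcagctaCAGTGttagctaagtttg
*Epas1*, chr17:86753768-86753797 (+): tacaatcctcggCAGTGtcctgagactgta
*Epas1*, a hypoxia factor, had 555, 531 and 588 CPM of footprints on 6.39, 9.2 and 10.2 CPM of RNA (5.59). The iron exporter *Slc40a1* was not tested, at 28.7, 62.1 and 32.7 CPM of footprints and 1.27 to 2.24 CPM of RNA. CAGTG alone occurs in the 5′ UTR of 22.2% of tested genes, so its letters do not mark the hairpin. Of 8 iron-regulated genes tested, 5 were higher and 2, the ferritins, lower (62.5% and 25%, against 45.8% and 29.8% of all genes).

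Of 8 stress-response messages with upstream reading frames tested, 5 were lower and 2 higher, against 29.8% and 45.8% of all genes. Their median was -1.76. Over the 4 members with a mean of at least 50 counts it was -0.56, centred anew on the median of all genes so counted. On the scale used elsewhere, *Ifrd1* and *Ibtk* of these 4 stood at -1.60 and -0.45. *Atf4*, the transcription factor whose upstream frames limit its translation in unstressed cells, had 9.03, 7.46 and 4.8 CPM of footprints on 218, 249 and 213 CPM of RNA (-5.31), and was named after its values were seen. Among the better-counted members *Eprs* was lowest at -1.92 ± 0.11, and *Cebpb* highest at 0.65 ± 0.35. Across all genes, 58.1% of the lowest decile had an ATG upstream of the annotated start codon and 45.0% of the highest. Polyamine-regulated mRNAs had 4 of 7 lower and 1 higher: *Sat1* (-2.73 ± 0.34) and *Odc1* (-2.59 ± 0.09) both stood below the median gene, the second with 84.4% shared windows. Selenoproteins divided, 7 of 14 higher and 6 lower. The better-counted members ran from *Selenow* (-2.96 ± 0.21) and *Gpx1* (-2.43 ± 0.15) to *Selenop* (1.66 ± 0.55) and *Selenof* (1.52 ± 0.83).

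The 12 lowest genes among the better-counted ran from -7.28 to -5.45. *Hbb-bs*, adult beta globin, was last at 32.9, 33 and 20.7 CPM of footprints on 6140, 4070 and 1670 CPM of RNA. Summed red blood cell markers were also highest in KO 1 and lowest in KO 3, at 12684, 8353 and 3104.8 CPM in RNA KO 1 to 3 and 1648.2, 1089.2 and 688.6 CPM in RPF KO, and 93.3% of the coding windows of *Hbb-bs* are shared with other genes. The part of either in this ratio was not tested. *Rps12*, *Rplp1*, *Rpl23*, *Rps14* and *Rps20* made up the ribosomal share. *Gm20594*, a predicted gene with 6820 to 15100 CPM of RNA, and *Bag1*, a co-chaperone of Hsp70 with 18.2, 21.8 and 24.9 CPM of footprints on 1180, 1170 and 1250 CPM of RNA, are annotated with no 3′ UTR. The annotated coding sequence of *Gm20594* is only 114 bases long, and 43.7% of its windows are shared with other genes.

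Of the others, *Zcrb1*, *Ankrd12* and *Nsrp1* have coding sequences rich in adenine and lysine codons. Adenine made up 35.6%, 36.6% and 38.0% of them, against a median of 25.8% over all tested genes. *Nsrp1*, a splicing regulator, had 9.03, 10 and 8.07 CPM of footprints on 297, 474 and 236 CPM of RNA (-5.45 ± 0.48). *Ankrd12* had 6.63, 12.1 and 5.67 CPM on 362, 679 and 239 CPM (-5.94 ± 0.34). Low members of 3 other lists had the same feature: adenine was 44.1% of the *Trdn* coding sequence, 42.4% of *Nexn* and 37.4% of *Eif5b*. Trdn is known for its lysine-rich tail, and lysine codons made up 21.5% of its codons against a median of 5.9%.

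The 30 in-frame coding bases with the most adenine are shown for 3 of these genes and, for contrast, for *Nedd4* at the top of the ranking; capitals mark the lysine codons AAA and AAG (GENCODE M21, GRCm38).
*Eif5b*, chr1:38021611-38021640 (+): AAAAAGAAAAAAgatAAGAAGAAAAAGAAA
*Nexn*, chr3:152252877-152252906 (-): caaagaAAGagaacagaagaagaaagaAAA
*Ankrd12*, chr17:65987009-65987038 (-): AAAagaAAAttaAAAaatcagaatAAAaac
*Nedd4*, chr9:72726447-72726476 (+): gaagaaAAAcaagatgacagaggaagatca
These windows held 24, 21, 22 and 17 adenines.

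Adenine content followed the ranking at its low end across all genes. The 298 genes whose coding sequence held at least 34% adenine had a median ratio of -1.54 (-1.56, -1.60 and -1.40 in pairs 1 to 3), and 44.3% of them were lower past 2-fold, against 16.2% of all genes. Between 25% and 28% adenine the median was 0.36 over 1680 genes. Per kilobase of coding sequence, the adenine-rich genes had a median of 33.5 CPM of RNA and 16.0 CPM of footprints, and the genes between 25% and 28% had 12.5 and 24.6 CPM. Such genes made up 14.4% of the lowest decile of the ranking and 0.435% of the highest. The bin was chosen after the low-ranking genes were seen, and the difference is given as a description.

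The annotated 3′ UTR was the transcript feature most related to the ranking of those compared. The Spearman rho between its length and the ratio was 0.36 across 6878 genes with an annotated coding sequence (0.35, 0.35 and 0.36 in pairs 1 to 3), against 0.23 for coding length, 0.01 for the 5′ UTR and -0.12 for the share of windows found elsewhere. Genes with under 100 bases of 3′ UTR had a median of -1.57 (403 genes), and those with 1500 to 3000 bases 0.73 (1155 genes). Median RNA per kilobase of coding sequence was 50.7 and 9.3 CPM in these bins, and median footprints per kilobase 25.7 and 23.5 CPM. The 12 highest genes had 3′ UTRs of 807 to 3090 bases, and ribosomal proteins a median of 87. Within ribosomal proteins the 16 members with at least 400 bases had a median of -4.31 and the 63 shorter ones -4.18, so the order across all genes was not seen among them. Adenine-rich genes had long 3′ UTRs, a median of 1050 bases, and among genes with at least 400 bases they stood at -1.44.

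**Figure D4:**
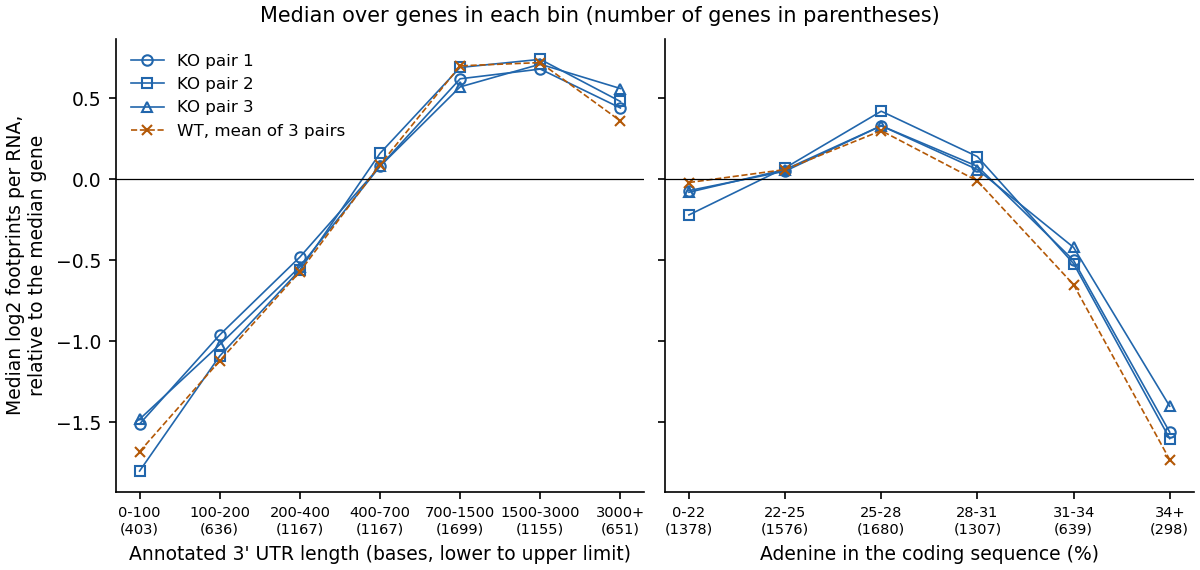
Median footprints per RNA of genes binned by annotated 3′ UTR length (left) and by adenine in the coding sequence (right), as log2 relative to the median gene, for each KO pair (blue) and for WT (orange). The median climbs from below -1.4 for the shortest 3′ UTRs to above 0.5 at 700 to 3000 bases, and falls below -1.3 for coding sequences of 34% adenine or more, in every KO pair.

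The matrix, endothelial and macrophage lists held more genes higher in footprints than lower, and the matrix had the highest median of them. The endothelial and macrophage medians were near those of the Z-disc list (1.27) and of glycolysis, pyruvate entry and the TCA cycle (0.68). Plasma and red cell proteins lay below the median gene (-1.98). Of 33 collagen and secreted matrix genes tested, 31 were higher in footprints, 27 of them past 2-fold against a background of 28.4%, and 0 were lower; the median was 2.71 (2.66, 2.99 and 2.68 in pairs 1 to 3). *Fbn1*, the microfibril protein fibrillin, had 431, 565 and 522 CPM of footprints on 13.9, 13 and 30.6 CPM of RNA (4.42 ± 0.57). *Lamc1*, a basement membrane laminin, had 516, 646 and 574 CPM on 26.3, 21.2 and 24.6 CPM (4.19 ± 0.24). Only *Timp2* (-0.74 ± 0.25) and *Mgp* (-0.63 ± 0.16) were not called. Endothelial genes had 10 of 13 higher and 2 lower (median 1.26), against 45.8% and 29.8% of all genes. The lowest was *Egfl7*, named after its values were seen, at 5.65, 4.77 and 12.2 CPM of footprints on 258, 325 and 274 CPM of RNA (-5.63 ± 0.86). Among better-counted members *Fabp4* was lowest (-1.04 ± 0.31, not called with mitochondrial names kept). The highest of these was *Kdr*, the main receptor for vascular growth factor, at 390, 356 and 412 CPM on 21.3, 9.51 and 21.1 CPM (4.15 ± 0.45). In macrophage and immune genes 14 of 17 were higher and 2 lower (median 0.67), from *Mrc1* (2.75 ± 0.48) to the complement genes *C1qb* (-0.92 ± 0.24) and *C1qa* (-0.80 ± 0.23), which were called higher with mitochondrial names kept.

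Summed fibroblast markers stood at 3418.2, 4150 and 3807 CPM in RPF KO and 759, 692.1 and 905 CPM in RNA KO, with 0 of 6 markers at 0 in either assay. Mural cell markers were 948.2, 1015.7 and 1255.6 CPM in RPF KO and 197.7, 143.9 and 248.6 CPM in RNA KO. The endothelial sum differed less, 2009.2 to 2142.6 against 1607.1 to 1958.3 CPM. Most of its RNA came from *Fabp4* (1430, 1600 and 1270 CPM in RNA KO 1 to 3), which, like *Egfl7*, was lower in footprints. The endothelial markers *Cdh5*, *Kdr* and *Pecam1* were higher in footprints, at 5.3, 4.15 and 2.4 relative to the median gene. *Flt1* was not tested and had a ratio of 4.94. The endothelial sum thus mainly follows 1 gene in RNA. Both assays were made from ventricular lysate, but in bulk tissue fewer cells of a type and less RNA per cell cannot be told apart, and the part of cell content in these ratios was not tested.

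The ranking in KO hearts was close to that in WT hearts. Over the 6299 genes tested in both, the KO and WT ratios correlated across genes at a Pearson r of 0.982 and a Spearman rho of 0.978, and 93.8% of genes lay on the same side of the median gene. The KO and WT values come from separate libraries. Their difference had an SD of 0.35 across genes, and 57 genes differed by more than 1 log2 unit. In WT 4803 of 6623 genes (72.5%) differed between assays, 46.2% higher and 26.3% lower. Cytosolic ribosomal proteins had a median of -4.06 in WT and -4.18 in KO, complex I -1.95 and -1.75, calcium handling 2.27 and 1.75, and matrix genes 3.08 and 2.71.

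Whether the assay difference itself differed between genotypes was tested with an interaction term fitted to the 12 libraries. In edgeR's quasi-likelihood test 0 of 6299 genes had an adjusted p below 0.05, and 204 (3.24%) had an unadjusted p below 0.05. The lowest adjusted p was that of *Rpl3l*, 0.735, at a log2 difference of -1.74 (SE 0.35). Its ratio was -2.28 in WT and -3.92 in KO, and the difference passed only in DESeq2 (adjusted p = 0.0051) and without a filter (0.00021). Its adjusted p ranged from 0.00021 to 1 over the settings run. *Rpl3* gave -0.10 (SE 0.30). The typical SE of this difference over all genes was 0.36; the size of difference that this test could detect was not simulated. None of the 24 genes at the ends of the ranking had an adjusted p under 0.998.

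**Figure D5:**
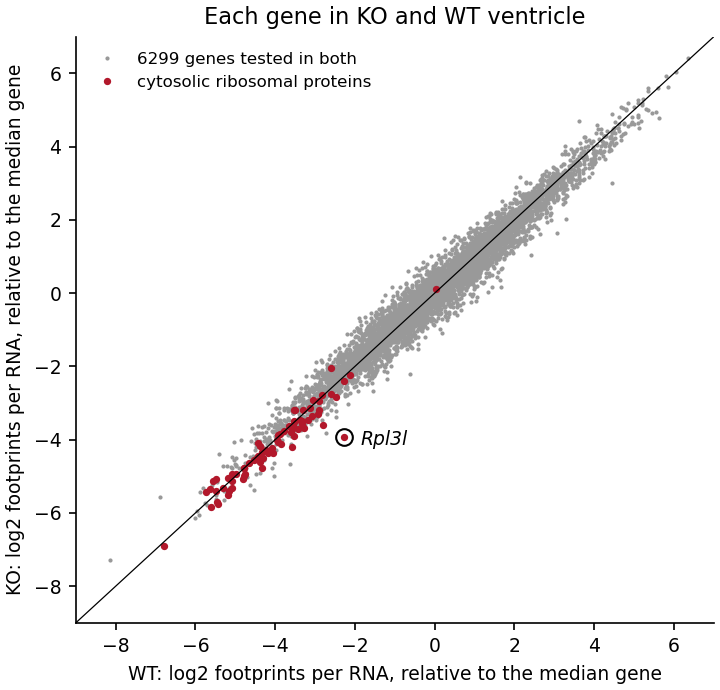
Footprints per RNA of 6299 genes in WT (x axis) and KO ventricle (y axis), both as log2 relative to the median gene of the genotype; the line marks equal values. Genes lie along the line with an SD of 0.35, ribosomal proteins (red) at its low end, and *Rpl3l* stands below it at -2.28 in WT and -3.92 in KO.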

How the data were processed

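The deposited values are raw counts per transcript name, whole numbers made by the authors from their reads, 1 table per library with 21669 names. Per the submitters' processing notes, cutadapt 1.18 and Bowtie2 2.4.2 were used, with no role given; the genome build, counted region, use of strand and treatment of multi-mapping reads are not given in the sources used here. If RNA and footprints were counted over different regions, their ratio would shift with transcript structure, and reads from copies or overlapping genes may be split. Of the names, 21425 (98.87%) matched GENCODE M21 (GRCm38), from which structures, coordinates and sequences were taken; coding lengths include the stop codon, and the authors' annotation may differ.

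The 10 names starting with mt- were left out and library sizes were the remaining counts, with no further factor. Genes passed filterByExpr (minimum count 10) in each assay separately. RPF KO was tested against RNA KO with edgeR 4.0.16 (glmQLFit, glmQLFTest, and glmTreat for 2-fold) in R 4.3.3, the 12-library interaction likewise, with Benjamini-Hochberg adjustment at 0.05; DESeq2 1.42.0 was an alternative. SE was derived from the fold change and its F statistic. Ratios per pair used CPM with 0.5 added. Class shares were compared by exact two-sided permutation of 3 against 3 libraries. Shared windows are 28-base coding windows found in transcripts of another gene. The fit of RPF KO against RNA KO was tried on simulated counts, in sets of 6808 and 9556 genes tested. It called 0 unchanged genes. Of 50 genes each changed 1.5-, 2-, 4- and 8-fold it recovered 4%, 54%, 90% and 86%. Figures used Python 3.11.15.

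The comparison, the gene lists and the marker lists were chosen with earlier results of these data known. Genes named by rule were *Rpl3l* and *Rpl3*, the 12 highest and 12 lowest among genes called, counted at 50 or more on average in both assays and on the same side of the median gene in all 3 pairs, the 10 with most footprints, and the 2 highest and 2 lowest of each list with at least 50 counts. Other names were chosen after their values were seen. Alternatives were TMM and median-of-ratios scaling, mitochondrial names kept, no filter, a minimum mean count of 50, a replicate block, DESeq2, library sizes without the 10 most counted names of either assay, ratios per length, and leaving out each library. Restrictions by shared windows and 3′ UTR length, leaving out both libraries of a number and calcium handling without *Atp2a2* were added after the data were seen. Counts cannot show amplified copies of a molecule, so detection floors cover counting error only. Some genes that these rules select are not reported here.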

Additional observations from a re-analysis of the deposited data

How the results depend on the processing

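The number of genes called was 5238 and past 2-fold 3095. Both stayed within 1.5 times under TMM, median-of-ratios scaling, mitochondrial names kept and the block, as did the first under DESeq2 and library sizes without the top 10 names, for which the second was not computed. Without a filter they were 9552 and 6804, and with a minimum mean count of 50 they were 2998 and 1555, since 16221 and 3958 genes were tested in place of 6931. The higher and lower calls were 2705 and 2529 with TMM, 6975 and 2577 without a filter, and 1405 and 1593 at a mean of 50. Leaving out 1 library gave 4891 to 5537 and 2982 to 3316, and leaving out both libraries of a number 4627 to 5429 and 2862 to 3254. A like total does not mean the same genes. Of the 5238 called, 3990 were called in the same direction with mitochondrial names kept, and 113 in the opposite one. With mitochondrial names kept, 4 named genes were called in the opposite direction (*Tpm1* 0.72, *Myl3* 0.74, *C1qb* 0.54 and *C1qa* 0.66), *Ckm* and *Fabp4* changed sign without being called (0.24 and 0.44, edgeR adjusted p = 0.31 and 0.056), and the ribosomal protein difference in share of counts went from -12.0 to -4.99 percentage points. Leaving out 1 library kept it at -12.3 to -11.6. The calcium handling difference, 2.93 points, was 3.42 with mitochondrial names kept and 0.25 without *Atp2a2*, an alternative added after seeing the data.

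Medians over 1 log2 unit above the median gene were found for 8 lists, and for 5 when limited to genes with under 20% shared windows and 5 when limited to 3′ UTRs under 400 bases. The 8 include replication-dependent histones, with 1 gene tested (3.32), and no member of that list is left in either subset. Each such subset was centred on its own median gene. The iron-regulated list, 2.39 over 8 genes, was -1.32 over the 4 with short 3′ UTRs, among them both ferritins. The cause was not tested.

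Deviations of same-numbered RPF and RNA libraries from the means of their groups had correlations of 0.08, 0.088 and 0.115, and each RPF library correlated best with its own number, a hint from the data and not the design. The replicate block gave 5289 and 3120 genes, and 0 in the comparison of genotypes (222 at an unadjusted p below 0.05). For KO against WT, 0 genes were called except 4 without a filter (*Cpeb3*, *Gm20594*, *Rpl3l* and *Uap1*) and 1 in DESeq2, *Rpl3l*. Leaving out each library gave 0, with an adjusted p of *Rpl3l* from 0.083 to 1 in edgeR's test. Depth limits the ranking to 6931 genes; 3811 more passed in footprints only and 290 in RNA only.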

Other observations

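Protein quality control and gene regulation lists spread around the median gene. Of all genes tested, 45.8% were higher and 29.8% lower. The shares were 52.9% and 20.6% for folding chaperones, 40.9% and 40.9% for chromatin regulators and 50% and 15% for cytosolic aminoacyl-tRNA synthetases. Of 34 folding chaperones tested, 18 were higher and 7 lower (median 0.44), from the small heat shock proteins *Hspb6* and *Hspb7* to *Hsp90aa1* (-2.49) and *Hspa8* (-1.53), which share 92.8% and 95.5% of their coding windows with other genes. Of 31 proteasome genes 14 were lower and 6 higher (median -0.67), with the base ATPases *Psmc1* (-2.10) and *Psmc3* (-1.98) at the low end. Cardiac transcription factors had 10 of 16 higher and 3 lower (median 0.79), led among better-counted members by *Nfe2l1* (2.26). Chromatin regulators had 9 of 22 higher and 9 lower, from *Ncor1* (-4.02) and *Chd7* (-3.13) to *Arid1a* (2.26). Cytosolic aminoacyl-tRNA synthetases, which charge tRNAs, had 10 of 20 higher and 3 lower (median -0.04), with *Iars* at 2.23. Energy buffer genes had 4 of 8 higher and 4 lower: the adenine nucleotide carrier *Slc25a4* (-1.58) and creatine kinase *Ckm* (-1.21, not called with mitochondrial names kept) were low and *Ak1* (1.71) high.

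The counts in the next lists also stand against 45.8% higher and 29.8% lower of all genes. Cardiac stress genes had 5 of 8 lower and 1 higher (median -1.15), with *Xirp2*, whose coding sequence holds 35.6% adenine, at -2.84 and *Ankrd1* at -1.60. Cold-inducible, immediate early and clock genes had 13 of 16 higher and 0 lower (median 1.10), among them *Cirbp* (1.39). Plasma and red cell proteins had 5 of 7 lower and 1 higher, and their median was -2.27, -2.48 and -1.22 in pairs 1 to 3. Replacement histones had 4 of 7 lower and 2 higher. Only 1 of 28 replication-dependent histones was tested; these mRNAs lack a poly(A) tail, and took a mean of 0.0298% of footprints and 0.00123% of poly(A)-selected RNA.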
